A study of Mus musculus with 23 samples.

Results

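The NADPH oxidase of phagocytes and a set of enzymes that remove reactive oxygen species were followed through brain macrophages sorted 1 day after stroke. The 9 genes, chosen by symbol from the 33280 genes of the counts table, were Cybb, Cyba, Ncf1 and Ncf4 of the oxidase, and the antioxidant genes Sod2, Gpx1, Gpx3, Gpx4 and Prdx1. All 9 were found in the table. They were compared across 5 groups set by the sample titles, with 23 libraries in all.

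All adult mice carried Ccr2creERT2/+ R26tdT/tdT, in which Cre made by cells that express Ccr2, a monocyte chemokine receptor, lets them and their descendants make the reporter tdTomato (tdT) from the day of tamoxifen. BLZ945, which blocks the CSF-1 receptor and thereby empties the brain of most of its macrophages, was given at 200 mg/kg for 7 days, and controls received vehicle (CTL), and tamoxifen followed in all mice at 2 mg per day on the last day of gavage and on 2 later days. Stroke was set 8 weeks later by thrombin in the middle cerebral artery. Since all groups had a stroke, no comparison here shows what the stroke did. Cells came from a coronal brain slice without choroid plexus, as CD206-negative microglia (MG) or as CD206int-high subdural CNS-associated macrophages (sdCAMs), which were split by the reporter. There were 5 libraries each of MG CTL, MG BLZ945, tdT- CTL and tdT- BLZ945 and 3 of tdT+ BLZ945. No tdT+ cells of CTL animals were analysed here. Libraries are named by the labels F1, F2, F3, M1 and M2, which within a treatment mark 1 animal or pool. CTL libraries held 1 animal each and BLZ945 libraries 2, apart from those named F2, so pooling and treatment cannot be told apart.

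The phagocyte oxidase moves electrons from NADPH across a membrane onto oxygen and so makes superoxide. Its membrane core consists of gp91phox (Cybb), which carries the electrons, and its partner p22phox (Cyba), and it becomes active when cytosolic subunits, among them p47phox (Ncf1) and p40phox (Ncf4), and a Rac GTPase dock to it. Superoxide dismutases turn superoxide into hydrogen peroxide, which catalase, glutathione peroxidases and peroxiredoxins then remove.

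Library totals lay between 9433960 and 13276081 counts, at which 3 counts, taken as the lowest level distinguishable from 0, were worth 0.23 to 0.334 CPM (the usual depth-scaled count, here with library totals scaled by TMM factors). Markers of both populations followed the labels. Summed microglia markers were 17101 to 26221 CPM in MG and 1150.4 to 2355 CPM in sdCAMs, and summed border macrophage markers were 12.7 to 52.2 CPM in MG and 13062 to 18868 CPM in sdCAMs. Gt(ROSA)26Sor, the reporter locus, was at 29.6 to 42.2 CPM in tdT+ and at most at 10.5 CPM in all other libraries. Markers of lymphocytes summed to at most 7.82 CPM and those of monocytes to at most 45.8 CPM, apart from 233 and 99.8 CPM of monocyte markers in tdT- BLZ945 F1 and M1. Erythroid markers stood at 313 CPM in tdT- BLZ945 F2 and at most at 29.5 CPM elsewhere, and choroid plexus markers at 555 CPM in MG BLZ945 F3 and 1784 CPM in tdT+ F3 and at most at 153 CPM elsewhere. In MG CTL and tdT- CTL, in that order here and in the next sentences, neural markers summed to 38.7 to 78.0 and 113 to 231 CPM, and markers of meningeal fibroblasts to 0.427 to 1.84 and 27.3 to 39.3 CPM. Genes of the dissociation response were mixed, with Fos at 2461 and 8342 CPM and Dusp1 at 996 and 3991 CPM on average, but Junb at 2958 and 2143 CPM and Egr1 at 2541 and 1759 CPM. Their sum was low in 3 sdCAM libraries, at 8582 CPM in tdT- CTL M2 (others 17366 to 24262), 8837 CPM in tdT- BLZ945 F2 (others 15590 to 21124) and 6276 CPM in tdT+ F2 (others 22032 and 22232). By the chi-square of their counts per gene, tdT- BLZ945 F2 was at 96.5 to 136 from the other libraries of its group, which were at 39 to 75.6 from each other, and MG CTL M2 was at 52 to 73.6, against 16.5 to 26.9. Of the neutrophil list, Csf3r averaged 178 CPM in MG CTL and 57.7 CPM in tdT- CTL, and the other 7 genes averaged at most 3.63 CPM in both groups. With BLZ945, Retnlg reached 74.2 CPM in a tdT- and 17.7 CPM in a tdT+ library. The others but Csf3r averaged at most 4.58 CPM in each BLZ945 group. The part of all these markers in the differences between sdCAMs and MG was not tested.

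Promoters are shown for Cybb, Gpx3, Ncf1 and Prdx1 because these genes took different courses between MG and sdCAMs in the values that follow: Cybb and Gpx3 were higher in sdCAMs, Ncf1 was lower, and Prdx1 stood apart in 1 animal. Each window runs from 250 bases before to 50 bases after the RefSeq start (GRCm38.p6), 5′ to 3′ on the strand of the gene. Capitals mark the letters GAGGAA, the core of the PU-box read by the macrophage factor PU.1, or TGACNNNGC, the core of the antioxidant response element read by Nrf2, on either strand. Cybb lies on the minus strand at chrX:9469275-9469574, Gpx3 on the plus strand at chr11:54902604-54902903, Ncf1 on the minus strand at chr5:134229576-134229875 and Prdx1 on the plus strand at chr4:116685349-116685648.
Cybb: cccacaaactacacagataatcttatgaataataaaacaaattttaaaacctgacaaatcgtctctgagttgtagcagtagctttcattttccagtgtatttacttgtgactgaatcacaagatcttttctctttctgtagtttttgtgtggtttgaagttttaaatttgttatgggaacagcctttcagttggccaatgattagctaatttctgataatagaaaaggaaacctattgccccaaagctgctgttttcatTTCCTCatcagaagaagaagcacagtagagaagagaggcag
Gpx3: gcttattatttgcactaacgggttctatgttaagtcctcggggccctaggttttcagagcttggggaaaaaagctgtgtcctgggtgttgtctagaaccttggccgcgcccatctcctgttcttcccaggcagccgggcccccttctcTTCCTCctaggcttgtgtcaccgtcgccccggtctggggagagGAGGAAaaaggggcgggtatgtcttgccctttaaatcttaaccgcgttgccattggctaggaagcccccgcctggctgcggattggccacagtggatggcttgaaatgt
Ncf1: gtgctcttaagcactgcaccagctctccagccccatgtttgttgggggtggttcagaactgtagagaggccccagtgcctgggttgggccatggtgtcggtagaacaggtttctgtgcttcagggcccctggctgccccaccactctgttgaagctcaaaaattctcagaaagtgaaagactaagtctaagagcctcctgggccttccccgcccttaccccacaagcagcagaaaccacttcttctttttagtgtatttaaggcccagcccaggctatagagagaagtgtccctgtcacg
Prdx1: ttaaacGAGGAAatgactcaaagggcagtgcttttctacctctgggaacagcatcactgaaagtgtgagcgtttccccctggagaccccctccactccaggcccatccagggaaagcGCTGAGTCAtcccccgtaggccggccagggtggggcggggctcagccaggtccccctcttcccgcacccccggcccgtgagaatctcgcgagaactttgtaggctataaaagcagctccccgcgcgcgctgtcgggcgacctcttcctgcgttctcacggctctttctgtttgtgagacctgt
GAGGAA occurred once in the Cybb window, just after the start, and 102 and 59 bases upstream of the start of Gpx3. It was also found 244 bases upstream of the start of Prdx1 and 203 bases upstream of that of Sod2. TGACNNNGC was found in 1 gene of the set, Prdx1, where it begins 133 bases upstream of the start. The Ncf1 window above and the windows of Cyba, Gpx1 and Gpx4 held neither. Of 32851 windows of this kind in the mouse genome, 28.3% held GAGGAA and 12.4% held TGACNNNGC, so both are common and nothing is drawn from a match. RefSeq windows were at hand for 8 of the 9 genes, all but Ncf4.

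The first question was how sdCAMs and MG of the same animals differed in the oxidase. The electron-carrying subunit was higher in sdCAMs and its cytosolic regulators were lower. In tdT- sdCAMs of CTL animals Cybb rose 11.7-fold, Ncf1 and Ncf4 fell 1.96-fold and 1.82-fold, and Cyba did not pass the test. In such bulk libraries, fewer cells of a type and less RNA per cell cannot be told apart. The values of all 9 genes in each library are plotted by group.

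**Figure D1:**
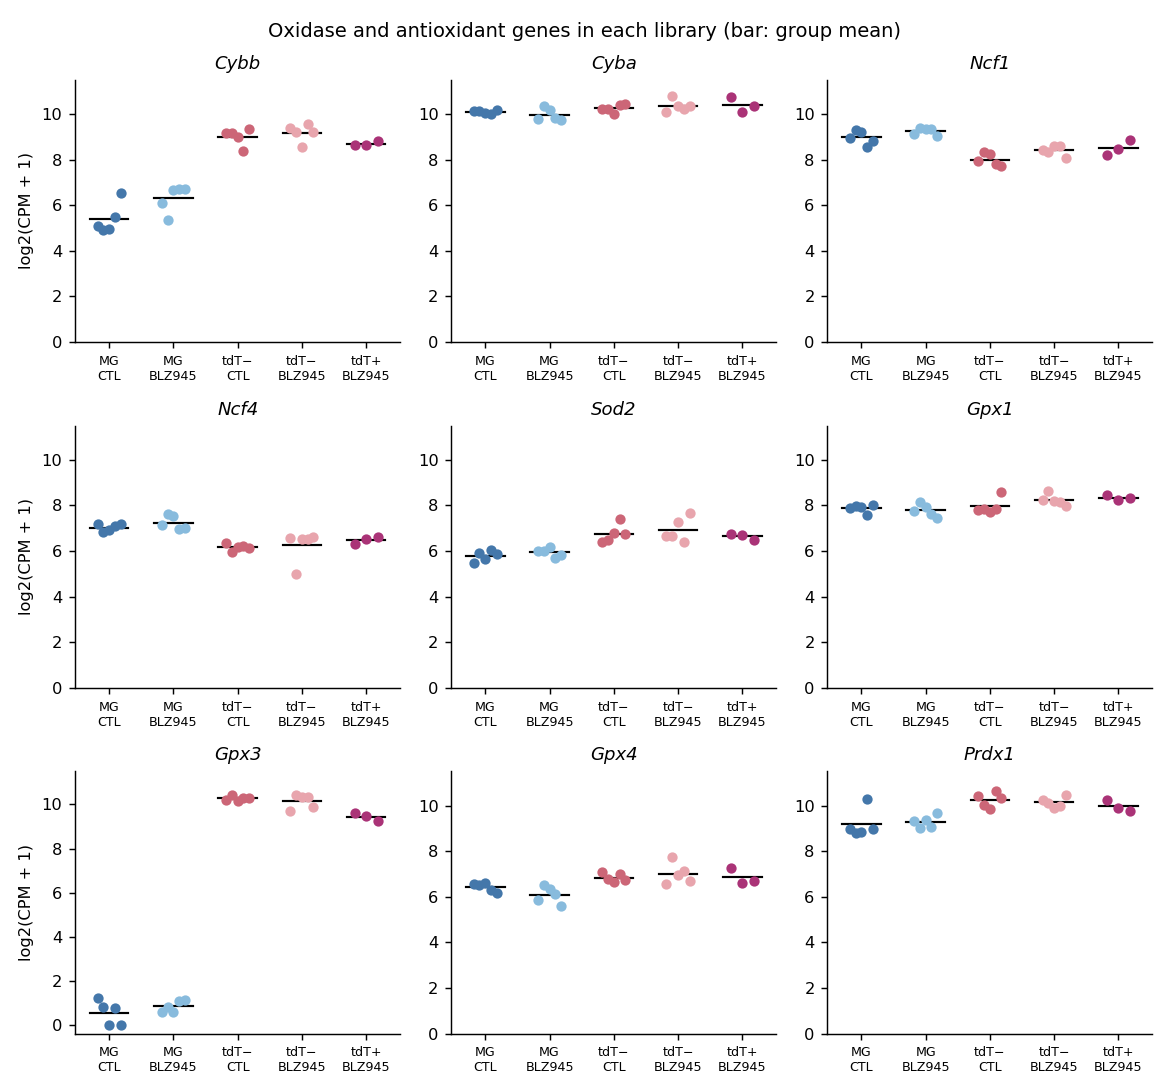
Level of each gene as log2(CPM + 1) on the vertical axis, with 1 point per library, the 5 groups along the horizontal axis and a bar at the group mean. Gpx3 lies near 0 in all 10 MG libraries and Cybb lies lower in MG than in sdCAMs, whereas Ncf1 and Ncf4 lie higher in MG.

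Cybb was measured at 28.8 CPM in F1, 29.8 in F2, 91.0 in F3, 33.0 in M1 and 43.1 in M2 of MG CTL, and at 575 in F1, 509.9 in F2, 652 in F3, 575 in M1 and 326 in M2 of tdT- CTL. In BLZ945 animals, Cybb was at 67.4 in F1, 40.1 in F2, 99.7 in F3, 103 in M1 and 103 CPM in M2 of MG, at 673 in F1, 595 in F2, 378 in F3, 743 in M1 and 592 CPM in M2 of tdT- sdCAMs, and at 396 in F2, 394 in F3 and 453 CPM in M2 of tdT+ sdCAMs. The lowest sdCAM library was thus above the highest MG library, and the order of the group means was tdT- BLZ945, tdT- CTL, tdT+ BLZ945, MG BLZ945 and MG CTL, with overlap between neighbours apart from the step from sdCAMs to MG. The log2 fold change of tdT- over MG was 3.55 (SE 0.33, adjusted p = 2.44e-08 by edgeR's quasi-likelihood fit, Benjamini-Hochberg over every gene tested) in CTL and 2.86 (SE 0.32, adjusted p = 4.04e-07, same edgeR test) in BLZ945 animals. For tdT+ over MG it was 2.32 (SE 0.32, edgeR adjusted p = 6.98e-06). Within animals, the log2 ratio of tdT- to MG ranged from 2.83 to 4.30 over the 5 CTL animals and from 1.92 to 3.88 over the 5 BLZ945 pools.

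Ncf1, which encodes the organizer of the active complex, took the opposite course. It stood at 631 CPM in F1, 594 in F2, 455 in F3, 488 in M1 and 378 in M2 of MG CTL, against 317 in F1, 301 in F2, 211 in F3, 245 in M1 and 222 in M2 of tdT- CTL. With BLZ945 it stood at 517 to 676 CPM in MG, at 266 to 390.4 CPM in tdT- sdCAMs, and at 289, 348 and 459 CPM in the tdT+ libraries F2, F3 and M2. MG and sdCAMs of a treatment did not overlap. The log2 fold change of Ncf1 was -0.97 (SE 0.15, edgeR adjusted p = 4.24e-05) in tdT- CTL, -0.82 (SE 0.15, edgeR adjusted p = 0.000243) in tdT- BLZ945 and -0.73 (SE 0.19, edgeR adjusted p = 0.0052) in tdT+ BLZ945. Every animal or pool showed it, down to a log2 ratio of -0.17 in the tdT+ pool M2.

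Ncf4, whose product binds a phosphoinositide of the phagosome membrane, also was lower. It measured 113 CPM in F1, 119 in F2, 144 in F3, 143 in M1 and 134 in M2 of MG CTL and 60.6 in F1, 72.0 in F2, 69.6 in F3, 80.4 in M1 and 73.9 in M2 of tdT- CTL. In BLZ945 animals it was 124 to 195 CPM in MG and 79.3 to 96.7 CPM in tdT+ sdCAMs, while tdT- sdCAMs held 95.4 in F1, 30.6 in F2, 90.1 in F3, 91.6 in M1 and 98.4 CPM in M2. One library, F2, thus lay far below the other 4 of its group, and the groups of MG and sdCAMs did not overlap. This F2 library and tdT+ F2 also had the low sums of dissociation genes given above, whose part in the Ncf4 values was not tested. The log2 fold change was -0.86 (SE 0.22, edgeR adjusted p = 0.0052) in tdT- CTL, -0.91 (SE 0.22, edgeR adjusted p = 0.0031) in tdT- BLZ945 and -0.78 (SE 0.25, edgeR adjusted p = 0.0253) in tdT+ BLZ945. The tdT+ call was lost with the replicate block (adjusted p = 0.0696) and, over fits that each left out 1 library, without MG BLZ945 F2 (0.0607) or F3 (0.0555) and without tdT+ F2 (0.1) or F3 (0.058, edgeR adjusted p in each case).

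Cyba, the partner that stabilises Cybb, was at 847 to 1285 CPM in MG and 1011 to 1789 CPM in sdCAMs. Per kilobase of merged exons its mean level was 1051 ± 52.1 CPM per kb (SD, n = 5) in MG CTL, where Cybb stood at 7.77 ± 4.52, Ncf1 at 139 ± 28.2 and Ncf4 at 64.5 ± 7.04 CPM per kb. In tdT- CTL the levels per kilobase were 1171 ± 138 for Cyba, 90.8 ± 21.2 for Cybb, 70.7 ± 13.0 for Ncf1 and 35.3 ± 3.57 for Ncf4 (SD, n = 5 each). On that scale Cyba was the highest of the 4, and Cybb was the lowest in MG CTL and close to Ncf1 in tdT- CTL. Cyba did not pass the test in CTL animals (log2 fold change 0.16, 95% interval -0.12 to 0.45, edgeR adjusted p = 0.452), passed it in tdT- BLZ945 (0.40, SE 0.14, edgeR adjusted p = 0.0277) and missed it in tdT+ BLZ945 (0.43, SE 0.17, edgeR adjusted p = 0.0589). It passed there in 5 of 16 other settings, with DESeq2 (0.0275), RLE factors (0.0366) and the strict filter (0.0454) and without MG BLZ945 F2 (0.0231) or tdT+ F3 (edgeR adjusted p = 0.0282). The call in tdT- BLZ945 was lost with library totals in place of TMM (adjusted p = 0.132) and with only the compared groups in the fit (0.0714). It was also lost without MG BLZ945 F1 (0.0773), M1 (0.0725) or M2 (0.085) and without tdT- BLZ945 F2 (edgeR adjusted p = 0.108), the library with the highest Cyba level.

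Ratios of counts within a library do not depend on scaling between libraries. The ratio of Cybb to Cyba was 0.0261 to 0.0778 in MG CTL, 0.0312 to 0.122 in MG BLZ945, 0.244 to 0.505 in tdT- CTL, 0.288 to 0.62 in tdT- BLZ945 and 0.231 to 0.359 in tdT+ BLZ945. Every sdCAM library lay above every MG library. The mean log2 ratio differed by 3.51 between tdT- and MG in CTL and by 2.51 in BLZ945 animals (two-sided exact permutation test, p = 0.00794 each, the smallest p that 5 against 5 libraries allow, and adjusted p = 0.0952 over the 24 ratio tests). The permutation test did not use the pairing of libraries from the same animal or pool. Among those 24 tests of 4 ratios in 6 comparisons, none passed an adjusted p of 0.05. The ratio of Ncf1 to Ncf4, 2.82 to 5.61 in MG CTL and 3 to 5.23 in tdT- CTL, differed by -0.10 on the log2 scale (exact permutation p = 0.667), so both genes were lower in sdCAMs by a like factor. In tdT- BLZ945 F2 this ratio was 10.4, above the range of 2.7 to 4.33 in the other 4 libraries.

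**Figure D2:**
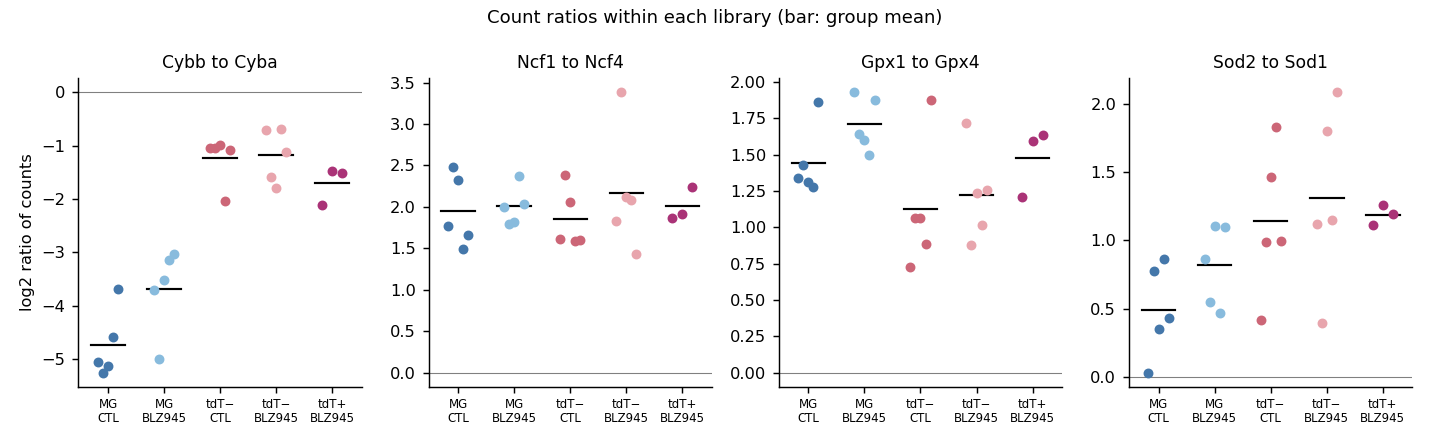
Ratios of counts of a pair of genes within each library, as log2 on the vertical axis with a grey line at equal counts, by group along the horizontal axis, with 1 point per library and a bar at the group mean. The Cybb to Cyba ratio separates the 13 sdCAM from the 10 MG libraries, whereas the other ratios overlap.

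Of the antioxidant genes, Gpx3 separated the populations almost completely. Gpx3, the secreted glutathione peroxidase, had 0 counts in F2 and F3 and 0.734, 1.37 and 0.689 CPM in F1, M1 and M2 of MG CTL, with at most 16 counts in a library. It was at 0.502 to 1.18 CPM in MG BLZ945. In tdT- sdCAMs it was at 1362 in F1, 1142 in F2, 1263 in F3, 1164 in M1 and 1260.5 CPM in M2 of CTL and at 825 in F1, 1357 in F2, 1311 in F3, 1299.6 in M1 and 957 CPM in M2 of BLZ945 animals, and tdT+ sdCAMs held 777 in F2, 718 in F3 and 604 CPM in M2. The log2 fold changes over MG, 10.43 (SE 0.43, edgeR adjusted p = 9.7e-14) for tdT- BLZ945 and 9.71 (SE 0.43, edgeR adjusted p = 2.99e-14) for tdT+ BLZ945, depend on how the fit treats the near-zero MG counts. In CTL animals it was 11.09. The MG level lies close to the floor of 3 counts, and the MG libraries also held 12.7 to 52.2 CPM of border macrophage markers. Their part in the few Gpx3 counts of MG was not tested.

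Sod2, the superoxide dismutase of mitochondria, was at 58.8 CPM in F1, 49.5 in F2, 57.5 in F3, 43.0 in M1 and 64.1 in M2 of MG CTL and at 87.2 in F1, 108 in F2, 106 in F3, 82.2 in M1 and 171 in M2 of tdT- CTL. With BLZ945 it was at 50.1 to 70.8 CPM in MG, 84.0 to 202 CPM in tdT- and 88.5 to 105 CPM in tdT+ sdCAMs, so sdCAMs lay above MG throughout. On the log2 scale Sod2 rose by 1.03 (SE 0.22, edgeR adjusted p = 0.00134) in tdT- CTL and 1.08 (SE 0.22, edgeR adjusted p = 0.000733) in tdT- BLZ945. For tdT+ over MG it was 0.70 (SE 0.24, edgeR adjusted p = 0.0359), a call lost with library totals (0.0796), with the replicate block (0.0971) and in 6 of 8 fits without 1 library, where the adjusted p lay between 0.0514 without MG BLZ945 F2 and 0.108 without tdT+ F2. Those 6 left out tdT+ F2 or F3 or MG BLZ945 F1, F2, M1 or M2. The ratio of Sod2 to its cytosolic relative Sod1 overlapped between the populations, at 1.02 to 1.82 in MG CTL and 1.33 to 3.55 in tdT- CTL (log2 difference 0.65, exact permutation p = 0.0476, adjusted p = 0.229).

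Prdx1, a cytosolic peroxiredoxin induced by Nrf2, was read at 449 CPM in F1, 461 in F2, 502 in F3, 497 in M1 and 1239.7 in M2 of MG CTL. The first 4 libraries thus lay close together and M2 at more than double their level. The corresponding tdT- CTL libraries held 1042 in F1, 918 in F2, 1277 in F3, 1350.0 in M1 and 1578 CPM in M2, so the same animal also had the highest value there. In BLZ945 animals Prdx1 was at 525 to 816 CPM in MG, at 949.8 to 1422 CPM in tdT- and at 868 to 1197 CPM in tdT+ sdCAMs, without overlap between MG and sdCAMs, whereas in CTL animals MG M2 lay above tdT- F1 and F2. Prdx1 was higher in tdT- than in MG by 0.98 (SE 0.24, edgeR adjusted p = 0.00356) in CTL and 0.85 (SE 0.24, edgeR adjusted p = 0.00847) in BLZ945 animals on the log2 scale. In tdT+ sdCAMs the difference was 0.67 (SE 0.26, edgeR adjusted p = 0.0628), which passed in 7 of 16 other settings. These were the replicate block (0.0271), DESeq2 (0.0379), RLE factors (0.0428), the strict filter (0.0457), the compared groups alone (0.0124), the letter F or M (0.0307) and the fit without MG BLZ945 M2 (edgeR adjusted p = 0.0457).

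M2 of MG CTL also was high or low in other genes and lists. Its sum was the highest of MG CTL in 3 of the 10 lists described further on, among them glutathione synthesis and use, which summed to 861 to 1557 CPM over the 5 libraries. The sums of Nrf2 regulators and targets and of the other peroxiredoxins were highest in M1, and those of superoxide dismutases and catalase and of selenoprotein supply were highest in F2 and lowest in M2. Srxn1, which restores oxidised peroxiredoxins, was at 81.4 CPM there and at 7.25 to 30.7 CPM in the other 4 MG CTL libraries, and Slc7a11, the cystine importer that feeds glutathione synthesis, at 59.7 CPM, also the highest of the 5. Gclm, a subunit of the enzyme that starts glutathione synthesis, was at 96.9 against 31.5 to 39.6 CPM, and Txnrd1, the thioredoxin reductase, at 157 against 76.0 to 106 CPM. These genes were named after their values were seen. M2 was the highest MG CTL library for 38.5% of the 52 listed oxidant and antioxidant genes with an average log2 CPM of at least 3 and for 26.2% of all 8935 genes at that level. P2ry12, a microglial gene, was lowest there, at 2927 against 4466 to 5379.6 CPM. Its part in these values was not tested.

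Gpx1 differed less than these genes, and Gpx4 did so in CTL animals only. Gpx1, the main cytosolic glutathione peroxidase, was at 190.1 to 255 CPM in MG CTL, 175 to 284 CPM in MG BLZ945, 209 to 386 CPM in tdT- CTL, 247 to 389.8 CPM in tdT- BLZ945 and 296 to 351 CPM in tdT+ BLZ945. It did not pass in CTL animals (log2 fold change 0.13, 95% interval -0.22 to 0.48, edgeR adjusted p = 0.648), where the sign turned to -0.09 without F3 of tdT- CTL, the highest library. In BLZ945 animals Gpx1 passed at 0.46 (SE 0.17, edgeR adjusted p = 0.042) in tdT- and 0.53 (SE 0.19, edgeR adjusted p = 0.0377) in tdT+ sdCAMs. Both calls were lost with library totals (0.15 and 0.0836) and without a filter on low counts (0.0692 and 0.0573). The tdT- call was also lost without MG BLZ945 F1, F3, M1 or M2 or tdT- BLZ945 F1, F2 or F3 (edgeR adjusted p of 0.0536 to 0.133), and the tdT+ call without MG BLZ945 F1, M1 or M2 or any of the 3 tdT+ libraries (0.0529 to 0.14).

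Gpx4, which reduces lipid peroxides within membranes, was at 91.7 CPM in F1, 97.8 in F2, 69.8 in F3, 93.2 in M1 and 78.3 in M2 of MG CTL and at 108 in F1, 99.9 in F2, 105 in F3, 134 in M1 and 125 in M2 of tdT- CTL. The ranges just missed each other. The log2 fold change was 0.42 (SE 0.20, edgeR adjusted p = 0.142), which passed with the replicate block (0.0311) and with only the compared groups in the fit (edgeR adjusted p = 0.0205). In BLZ945 animals MG held 47.5 to 91.2 CPM, tdT- sdCAMs 92.3 to 212 CPM, the highest in F2, and tdT+ sdCAMs 97.9 to 152 CPM. Gpx4 rose by 0.97 (SE 0.20, edgeR adjusted p = 0.000755) in tdT- and by 0.77 (SE 0.23, edgeR adjusted p = 0.0162) in tdT+ sdCAMs on the log2 scale, the latter lost without tdT+ F2 (0.149). A processed copy of Gpx4 is in the table, and reads shared between near-identical copies make its values uncertain.

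In CTL animals, 4 of the 9 genes rose in tdT- sdCAMs (Cybb, Gpx3, Sod2, Prdx1), 2 fell (Ncf1, Ncf4) and 3 did not pass, with a median log2 fold change of 0.42. Of all 12697 genes tested there, 25.6% were called, 15.3% as higher and 10.3% as lower, and their median was -0.01. With library totals in place of TMM, the share of these calls that were higher moved from 59.7% to 49.1%, and with BLZ945 from 56.5% to 44.3%. With BLZ945, 7 rose and 2 fell in tdT- sdCAMs (median 0.85), beside 32.4% called of all genes, 18.3% higher and 14.1% lower. For tdT+ sdCAMs over MG, 5 rose and 2 fell (median 0.67), beside 25.2% called, 14.6% higher and 10.6% lower. The 2 BLZ945 comparisons share their MG libraries.

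**Figure D3:**
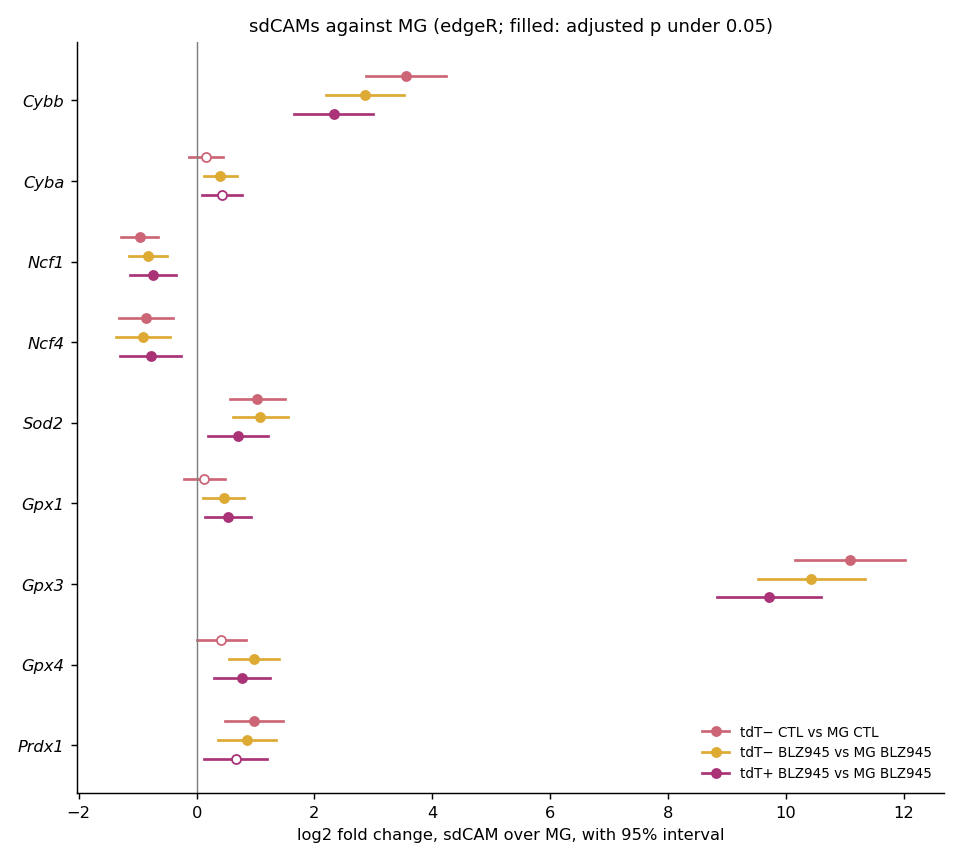
Log2 fold change of sdCAMs over MG on the horizontal axis for each gene, with its 95% interval from the edgeR fit, in 3 comparisons. Filled points passed an adjusted p of 0.05; Cybb, Gpx3 and Sod2 lie to the right and Ncf1 and Ncf4 to the left in all 3.

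The second question was what BLZ945 and 8 weeks of repopulation left behind in the same population. None of the 9 genes was called by edgeR. In MG, 46 of 11264 genes were called (0.408%), and 8 of the 9 were tested, as Gpx3 was under the filter. Cybb and Gpx4, 2 of the 8, had an unadjusted p under 0.05, and DESeq2 called 0. The largest difference was that of Cybb, at 45.2 ± 26.3 CPM in CTL and 82.7 ± 28.2 CPM in BLZ945 MG (SD, n = 5 each), a log2 fold change of 0.86 (95% interval 0.21 to 1.52, edgeR adjusted p = 0.253). The libraries listed above overlap, since MG CTL F3 (91.0) is above F1 and F2 of BLZ945. Cybb passed without MG CTL F3 (log2 fold change 1.28, edgeR adjusted p = 0.0333) and without a filter on low counts (0.0275). MG CTL F3 also had the highest sum of border macrophage markers in MG, at 52.2 CPM against 27.2 in F1, 33.4 in F2, 45.8 in M1 and 24.7 CPM in M2 of CTL and 12.7 to 35.6 CPM in BLZ945 MG. Their part in its Cybb level was not tested. The ratio of Cybb to Cyba differed by 1.06 on the log2 scale (exact permutation p = 0.0476, adjusted p = 0.229).

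The other genes of BLZ945 MG lay within a log2 fold change of -0.34 for Gpx4 (95% interval -0.67 to -0.0021, edgeR adjusted p = 0.375) and 0.24 for Ncf1 (interval -0.03 to 0.52, adjusted p = 0.451) of CTL MG. Prdx1 was at 0.00 with an interval of -0.52 to 0.52, and at 0.41 without M2 of MG CTL. In tdT- sdCAMs, where 0 of 13076 genes were called (0%; 697 had an unadjusted p under 0.05, and DESeq2 called 72), the largest of the 9 differences was that of Ncf1, at 259 ± 47.6 CPM in CTL and 341 ± 52.4 CPM in BLZ945 (SD, n = 5 each). Its log2 fold change was 0.40 (95% interval 0.04 to 0.77, edgeR adjusted p = 0.835), and F1 and F2 of CTL overlapped with the BLZ945 libraries. The intervals of the 8 others all held 0 and reached at most 0.75 and -0.45. Ncf1 was the 1 gene of the 9 with an unadjusted p under 0.05, and DESeq2 called 0.

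A direct test of whether BLZ945 acted differently in tdT- sdCAMs and in MG called 5 of 12697 genes (0.0394%) and 0 of the 9, of which 0 had an unadjusted p under 0.05. DESeq2 called 113 genes and 0 of the 9. The largest difference of differences among the well measured genes was that of Cybb, at -0.69 (95% interval -1.57 to 0.18, edgeR adjusted p = 0.687), followed by Gpx4 at 0.56 (interval -0.03 to 1.15, edgeR adjusted p = 0.607). For Gpx3 it was -0.66 (interval -1.88 to 0.57), with near-zero counts in MG.

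The third question was whether sdCAMs that carried the Ccr2 reporter differed from those that did not. Gpx3 was the gene with the clearest difference. All 3 tdT+ libraries, at 604 to 777 CPM, lay below all 5 tdT- BLZ945 libraries, at 825 to 1357 CPM, and below all 5 tdT- CTL libraries, at 1142 to 1362 CPM. The log2 fold change was -0.73 against tdT- BLZ945 (SE 0.17, edgeR adjusted p = 0.173) and -0.83 against tdT- CTL (SE 0.17, edgeR adjusted p = 0.054), so neither passed the test. Within the pools that gave both libraries, F2 gave a log2 ratio of -0.80, F3 of -0.87 and M2 of -0.66. DESeq2 called both (adjusted p = 0.00935 and 0.00134), and edgeR called the first without tdT- BLZ945 F1 (adjusted p = 0.0464), the library with the lowest Gpx3 and with 233 CPM of monocyte markers. Against tdT- CTL, edgeR also called it with library totals (0.0366), without a filter (0.0432), with a strict filter (0.0404) and with only the compared groups (0.0187). It was thus called in 2 of 17 other settings against tdT- BLZ945, with an adjusted p of up to 0.958, and in 5 of 18 against tdT- CTL, with one of up to 0.26, and all log2 fold changes lay between -0.91 and -0.63.

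The sum of border macrophage markers moved in the same direction, at 13062 to 15268 CPM in tdT+, 15651 to 18827 CPM in tdT- BLZ945 and 16335 to 18868 CPM in tdT- CTL libraries. In that order, mean Cd163 was at 353, 1458 and 1697 CPM and mean Lyve1 at 1534, 2750 and 2345 CPM. The other markers differed less, and Ms4a7 was not lowest in tdT+, at 1473, 1683 and 1426 CPM. The part of these markers in the lower Gpx3 of tdT+ sdCAMs was not tested. Choroid plexus markers were at 1784 CPM in tdT+ F3 and near 0 in F2 and M2, and Gpx3 was at 718 CPM in F3 and at 777 and 604 CPM in F2 and M2. The 8 other genes were not called against tdT- BLZ945, where 27 of 13076 genes were (0.206%), nor against tdT- CTL, where 37 were (0.283%). Next to Gpx3, Cybb had a log2 fold change of -0.54 against tdT- BLZ945 (95% interval -1.03 to -0.05, edgeR adjusted p = 0.671) and overlap with F3 of that group. Ncf1 was at 0.49 against tdT- CTL (interval 0.08 to 0.90, edgeR adjusted p = 0.599). At an unadjusted p under 0.05 there were 2 of the 9 in each comparison, and both comparisons use the same tdT+ libraries.

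**Figure D4:**
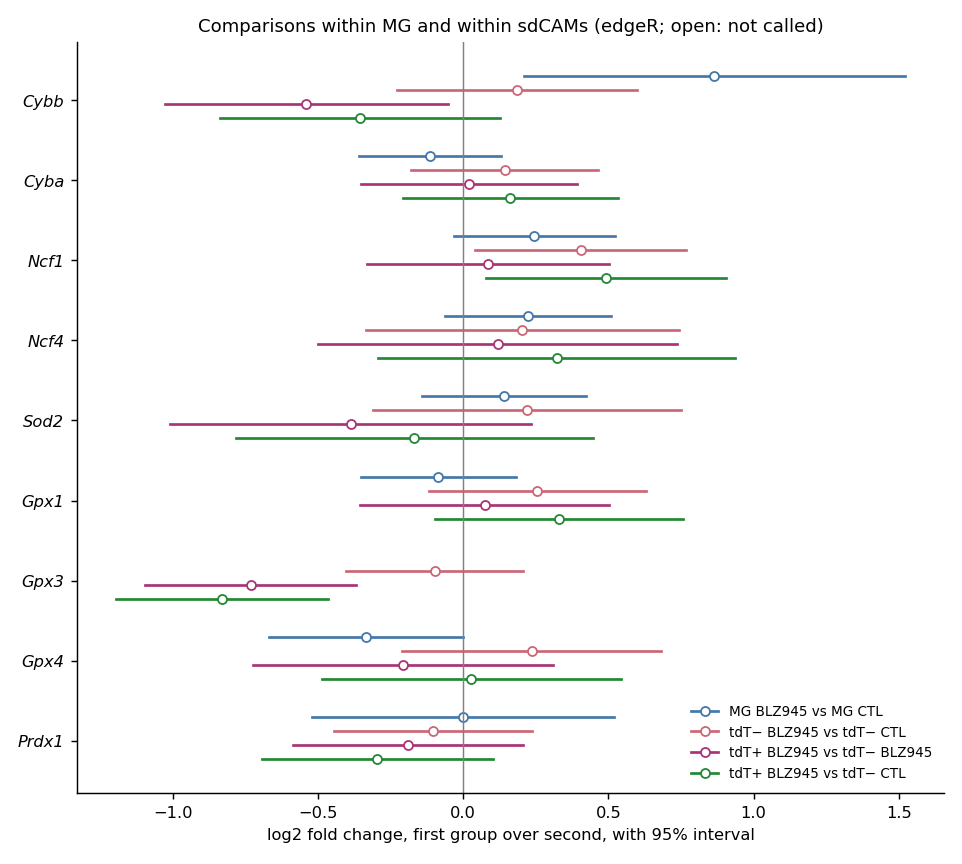
Log2 fold change on the horizontal axis with its 95% interval from the edgeR fits, for BLZ945 against CTL in MG and in tdT- sdCAMs and for tdT+ sdCAMs against both tdT- groups. No point is filled, since no gene passed an adjusted p of 0.05; the intervals of Gpx3 for tdT+ sdCAMs lie wholly below 0.

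Around the 9 genes, 75 further genes of oxidant production and defence were followed as 10 lists, of which 59 were tested in CTL animals. In tdT- sdCAMs over MG, 14 rose and 4 fell in CTL (median log2 fold change 0.14), 19 rose and 9 fell in BLZ945 animals (median 0.14), and for tdT+ sdCAMs 17 rose and 7 fell of 61 (median 0.05). edgeR called 0 in any comparison of treatment or reporter, where 2 to 9 had an unadjusted p under 0.05, and DESeq2 called 1 in MG and 1 for the difference of BLZ945 effects. Of all genes, as given above, 15.3%, 18.3% and 14.6% were called higher and 10.3%, 14.1% and 10.6% lower in these 3 comparisons. Among the 11 partners of the oxidase 0 were called higher, and 3, 4 and 3 fell, with median log2 fold changes of -0.16, -0.16 and -0.02.

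Hvcn1, the proton channel that balances the charge moved by the oxidase, fell from 88.5 ± 8.55 CPM in MG CTL to 26.1 ± 5.53 CPM in tdT- CTL (SD, n = 5 each; log2 fold change -1.75, SE 0.22, edgeR adjusted p = 2.24e-06), without overlap, and likewise in tdT- BLZ945 (-1.56) and tdT+ BLZ945 (-1.49, edgeR adjusted p of 9.81e-06 and 0.000247). Vav1, an exchange factor for Rac, and Prkcd, a kinase that phosphorylates p47phox, fell by 0.59 and 0.47 on the log2 scale in CTL. Pik3cg, a kinase upstream of the oxidase, fell by 0.99 in tdT- BLZ945 and by 1.18 in tdT+ BLZ945. Its log2 fold change in CTL was -0.16 (edgeR adjusted p = 0.683). Rac1 and Rac2 did not pass in any of the 3. The other NADPH oxidases, a list of 9 genes, summed to at most 10.7 CPM in any library, and no library held a count of Noxa1 or Duoxa2.

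Of the other lists, Mgst1, a membrane-bound glutathione transferase, rose by 7.08 on the log2 scale in tdT- CTL (SE 0.41, edgeR adjusted p = 1.36e-11), from 1.36 to 185 CPM, and Gstm1, a cytosolic one, by 4.02 (SE 0.33, edgeR adjusted p = 3.09e-09). Hmox1, the haem oxygenase, rose by 3.30, and in the list of other oxidant enzymes Xdh, the xanthine dehydrogenase that can itself release superoxide, rose by 4.01. These 4 also rose in both BLZ945 comparisons. Of the other 5 peroxiredoxins, 2 rose in CTL and 4 in each BLZ945 comparison, and none fell. On the other side, Gclc, the catalytic subunit of glutathione synthesis, fell by 1.85 in tdT- BLZ945 (SE 0.43, edgeR adjusted p = 0.00224). Its tdT- BLZ945 libraries spanned 1.30 to 42.1 CPM, the lowest with 12 counts. Txnrd1 fell by 1.73 in tdT+ BLZ945. Eefsec, an elongation factor for selenoproteins, fell by 0.93 in tdT- BLZ945 (edgeR adjusted p = 0.0249). The Eefsec call was lost with only the compared groups in the fit (0.127) and without tdT- BLZ945 M2 (edgeR adjusted p = 0.0522). Myeloperoxidase (Mpo) and Nos2, other sources of oxidants, had no count in MG CTL and in tdT- CTL.

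**Figure D5:**
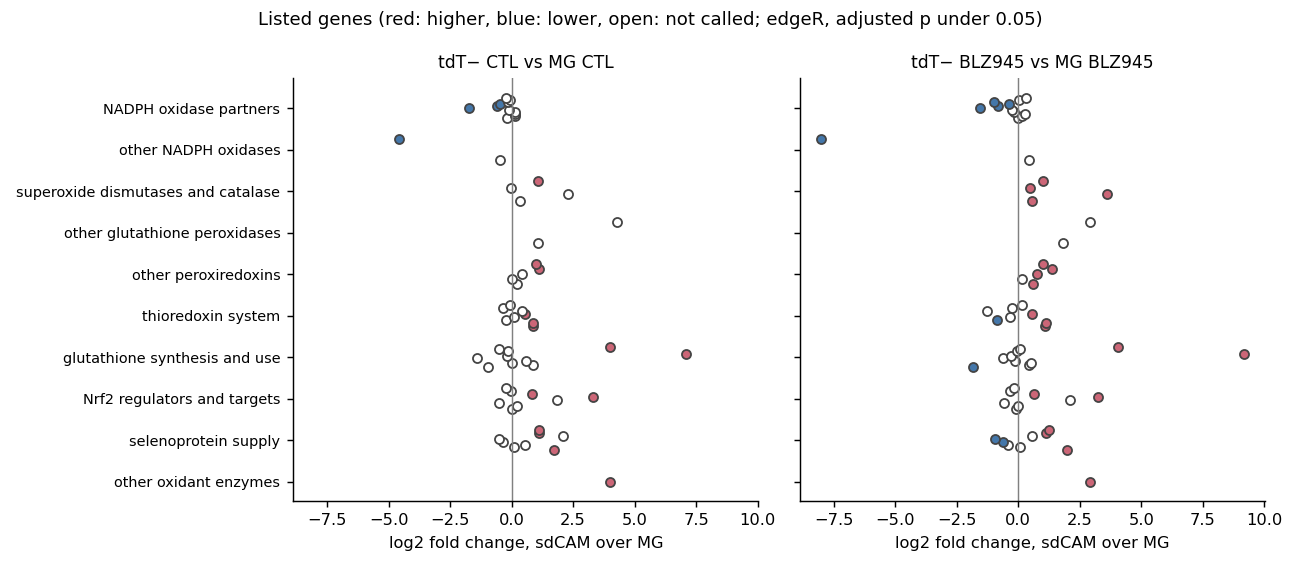
Log2 fold change of tdT- sdCAMs over MG on the horizontal axis for the tested genes of the 10 lists, in CTL animals (left) and BLZ945 animals (right), with 1 point per gene. Red points were called higher, blue points lower and open points were not called; no oxidase partner is red.

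Across the 23 libraries, the genes whose log2(CPM + 1) followed each of the 9 most closely, among 5158 genes with an average log2 CPM of at least 5, differed from gene to gene. Gpx3 went with Lyve1 and Pla2g7 (Pearson r = 0.996 and 0.994) and Cybb with Aplp2 and Siglec1 (r = 0.972 and 0.968), all 4 higher in sdCAMs. Ncf1 was closest to Rassf5 and Sla (0.926 and 0.924), and Ncf4 to Itgav and Rubcnl (0.914 and 0.905). Prdx1 went with Ftl1 and Cstb (0.924 and 0.922) and Sod2 with Ms4a6d and Mt2 (0.909 and 0.902). Cyba followed Ndufa2 and Dpm3 (0.936 and 0.935), Gpx1 followed Anapc13 and Tmsb4x (0.936 and 0.902), and Gpx4 followed Ech1 and Ptpn18 (0.919 and 0.892). The libraries share animals, and the difference between the populations alone can bring such values about, so they carry no test.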

How the data were processed

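The authors deposited raw counts of reads for each gene symbol. Per the labels, the authors used bcl2fastq 2.20, STAR 2.7.11a and featureCounts 2.0.6. Which mouse genome build served for this table is not clear from the sources, nor is the handling of reads that match several genes, so no position is taken from the table, and the promoter windows are RefSeq's own (GRCm38.p6). Their exon lengths per kilobase came from GENCODE M21 and may differ from the authors' annotation. Tests used edgeR 4.0.16 under R 4.3.3 (TMM, filterByExpr, quasi-likelihood test without a replicate block). Adjustment followed Benjamini-Hochberg across every tested gene, and a gene was called under 0.05. MG groups were fitted in 10 libraries, sdCAM groups in 13, tdT- sdCAMs with MG in 20, and tdT+ sdCAMs with MG in 23. Ratios were tested with a two-sided exact permutation test (scipy 1.17.1) that took all libraries as unpaired. The smallest p is 0.00794 for 5 against 5 and 0.0357 for 3 against 5 libraries.

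The study used DESeq2, here an alternative (1.42.0). Other alternatives were RLE factors, library totals, no filter, a filter of 10 counts in every library, other sets of libraries, the replicate block, the letter F or M, and each library left out. Leaving out both M2 CTL libraries was added after seeing the data. Named pathway genes were at most the 4 largest rises and falls per comparison among called genes with an average log2 CPM of at least 3. The members and lists were chosen with earlier results of these data known. The labels name separate animals or pools, and within a treatment equal replicate names are the same animal or pool, so the names pair MG and sdCAM libraries. The correlation of such pairs' deviations from their group means was 0.0287 to 0.183. By the library names, 1 animal number occurs in both the F2 and the M1 BLZ945 libraries, although Xist and the Y-linked genes separated F from M libraries in all 23. No library duplicated another, since the closest pair had a chi-square of 16.5 per gene. Intervals and floors cover counting or replicate error only, since PCR reads without molecular identifiers are not independent molecules. The scripts were tested on simulated counts. Of the listed genes, 2 marker genes were not in the table.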

Additional observations from a re-analysis of the deposited data

Results flagged for a closer look

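In 52 groups of 5 libraries (9 genes and 4 ratios in 4 groups), 6 had an end value set apart from the other 4 by more than Dixon's 95% limit on the gap relative to the range. Chance flags about 1 in 20 such groups. Prdx1 was at 1239.7 CPM in M2 of MG CTL against 449 to 502 CPM in the others, and Gpx1 in the same library was at 190.1 CPM, below 236 to 255 CPM. In the tdT- library of that animal the ratio of Cybb to Cyba was 0.244, below 0.476 to 0.505. Ncf4 was at 30.6 CPM in F2 of tdT- BLZ945, below 90.1 to 98.4 CPM. Gpx1 was at 386 CPM in F3 of tdT- CTL, above 209 to 231 CPM, and the ratio of Gpx1 to Gpx4 was 3.65 in F3 of MG CTL, above 2.43 to 2.69. No member met the test of a BLZ945 effect that differed between tdT- sdCAMs and MG.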

How the results depend on the processing

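The counts of the 9 genes called moved mainly for tdT+ sdCAMs: 7 were called over MG, 9 with DESeq2 and with RLE factors, 8 with the strict filter, 5 with library totals and 3 to 6 with 1 library left out (3 without tdT+ F2). In MG, BLZ945 against CTL gave 0 calls, and 1, Cybb, without a filter and with the replicate block (0 to 1 with 1 library left out). Gpx3 was the 1 gene called for tdT+ against tdT- BLZ945 by DESeq2 (0 to 1 with 1 library left out) and against tdT- CTL by DESeq2, library totals, no filter, the strict filter and the compared groups alone. Between treatments the block pairs different animals that share only a name (r of -0.0803 to 0.186 for their deviations), and for MG Cybb it gave an adjusted p of 0.0398. Within a treatment, where it pairs libraries of 1 animal or pool, the block changed 4 calls, adding Gpx4 in CTL and Prdx1 in tdT+ over MG and removing Ncf4 and Sod2 there. With library totals in place of TMM, the median of all genes shifted by -0.12, -0.16 and -0.12 (log2) in the 3 comparisons of sdCAMs with MG, and the share of calls that were higher in tdT- moved from 59.7% to 49.1% in CTL and from 56.5% to 44.3% with BLZ945. Of all genes, tdT- over MG with BLZ945 gave 4113 calls and 2738 with the compared groups alone. MG BLZ945 against CTL gave 46, DESeq2 5.93 times as many, other settings 12 to 193 and the replicate block 89 (22 to 102 with 1 library left out). For tdT- BLZ945 against CTL edgeR gave 0, DESeq2 72 and other settings up to 29. For tdT+ against tdT- BLZ945 they were 27, 187 and 6 to 82 (16 to 27), against tdT- CTL 37, 227 and 32 to 121 (21 to 44), and for the difference of BLZ945 effects 5, 113 and 0 to 9 (0 to 36).

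Signs turned for differences near 0. Prdx1 in MG, BLZ945 against CTL, was 0.00196 with DESeq2, 0.014 with all 23 libraries, 0.11 with the replicate block, 0.066 with the letter F or M and 0.41 without both M2 CTL libraries (-0.11 to 0.41 with 1 library left out). The replicate block gave -0.12 for Cyba in tdT+ against tdT- BLZ945 and -0.047 for Gpx4 against tdT- CTL, and Sod2 there was 0.035 without both M2 CTL libraries. With 1 library left out, ranges in log2 that crossed 0 were as follows. In tdT- against MG of CTL, Gpx1 ran from -0.094 to 0.19. In tdT- BLZ945 against CTL, Sod2 ran from -0.014 to 0.42. In tdT+ against tdT- BLZ945, Cyba ran from -0.15 to 0.17, Ncf1 from -0.10 to 0.24, Ncf4 from -0.079 to 0.21 and Gpx4 from -0.42 to 0.026. In tdT+ against tdT- CTL, Cyba ran from -0.024 to 0.30, Gpx4 from -0.19 to 0.14 and Sod2 from -0.26 to 0.035. For the difference of BLZ945 effects, Ncf4 ran from -0.12 to 0.18 and Sod2 from -0.17 to 0.27. Of the ratios, Cybb to Cyba ran from -0.14 to 0.21 in tdT- BLZ945 against CTL, where Gpx1 to Gpx4 ran from -0.027 to 0.29 and Sod2 to Sod1 from -0.023 to 0.40. Ncf1 to Ncf4 ran from -0.23 to 0.034 in tdT- against MG of CTL, -0.14 to 0.35 with BLZ945, -0.056 to 0.19 in MG and -0.35 to 0.14 in tdT+ against tdT- BLZ945. Sod2 to Sod1 ran from -0.35 to 0.070 there and -0.13 to 0.22 against tdT- CTL. The cause of these changes was not tested.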
